A study of Mus musculus with 6 samples.

Results

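Heme synthesis enzymes were followed in murine erythroleukemia (MEL) cells through 4 days of treatment with 2% DMSO. The genes are Alas1, Alas2, Alad, Uros, Urod, Cpox, Ppox and Fech, which are 8 of the 23896 genes that have a symbol in the deposited counts. RefSeq accessions were matched to symbols, and the transcript with the highest mean count over the 6 libraries stood for its gene. Alas2 and Alad each have 2 transcripts in the counts and the other members have 1. All 8 members passed the filter on low counts, which 18351 of 32654 transcripts passed.

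MEL is a mouse leukemia line of red cell precursors, and adding DMSO to its medium starts hemoglobin production. The day 0 cells had no DMSO, and the day 2 and day 4 cells had been in 2% DMSO for 2 and 4 days, with 2 replicate cultures of this 1 line per day and mRNA-seq counts for each. No culture kept without DMSO for 2 or 4 days is among the 6 libraries, so time in culture and DMSO cannot be told apart. In bulk samples such as these, fewer cells of a type and less RNA per cell cannot be told apart either.

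Heme is made in a path that begins and ends in the mitochondrion and passes through the cytosol between. Aminolevulinate synthase joins glycine and succinyl-CoA at the entry of the path. This step has a housekeeping isozyme, ALAS1, and an erythroid isozyme, ALAS2. The cytosolic enzymes ALAD, UROS and UROD then build and trim the porphyrin ring, CPOX and PPOX oxidize it at the mitochondrion, and ferrochelatase (FECH) inserts iron. In erythroid cells the product goes mainly to hemoglobin. Translation of Alas2 mRNA is held back at low iron through an iron-responsive element, a hairpin in its 5′ UTR that binds the proteins encoded by Aco1 and Ireb2.

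The iron-responsive element was searched for as a hairpin whose loop reads CAGTGN. It was chosen as a known control element that separates the 2 synthase isozymes. Among the 8 members it was found in Alas2 only, at positions 90 to 106 of the 126-base 5′ UTR of the transcript NM_009653. Such a hairpin was found in 60 of 50507 5′ UTRs of coding transcripts in GENCODE M21, or 0.119%. It is printed 5′ to 3′ with flanking bases and with the loop letters in capitals.
Alas2 hairpin: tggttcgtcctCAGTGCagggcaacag

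Promoter windows are shown for Alas2, the member that rose most, Cpox, the member that fell, and Alas1, the isozyme with the smallest change. Each window runs from 250 bases before to 50 bases after a RefSeq start site of GRCm38.p6 and is printed 5′ to 3′ on the strand of the gene. The letters searched on both strands were AGATAA, the same with a closing G (AGATAG), and both of these with T in place of the opening A (TGATAA, then also TGATAG), which GATA factors can bind, and CACCC, which erythroid Krüppel-like factors can bind. Capitals mark every match, and a match on the other strand reads as its reverse complement. In the Alas1 window, capitals also mark the palindrome that nuclear respiratory factor 1 can bind, from base 29 to base 38 after the start site, which was chosen after the sequence was seen.
Alas2, chrX:150547167-150547466, plus strand: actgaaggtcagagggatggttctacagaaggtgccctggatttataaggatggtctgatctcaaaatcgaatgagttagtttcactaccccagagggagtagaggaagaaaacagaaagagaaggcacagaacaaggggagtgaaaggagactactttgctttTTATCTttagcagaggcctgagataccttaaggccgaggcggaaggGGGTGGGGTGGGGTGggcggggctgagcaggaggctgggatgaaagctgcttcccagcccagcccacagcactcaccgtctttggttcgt
Cpox, chr16:58669958-58670257, plus strand: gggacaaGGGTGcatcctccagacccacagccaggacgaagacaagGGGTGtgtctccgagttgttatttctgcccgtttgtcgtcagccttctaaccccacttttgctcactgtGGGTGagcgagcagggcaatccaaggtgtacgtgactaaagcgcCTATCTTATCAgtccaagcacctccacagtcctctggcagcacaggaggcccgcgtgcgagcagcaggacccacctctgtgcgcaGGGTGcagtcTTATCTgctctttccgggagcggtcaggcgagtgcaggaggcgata
Alas1, chr9:106247905-106248204, minus strand: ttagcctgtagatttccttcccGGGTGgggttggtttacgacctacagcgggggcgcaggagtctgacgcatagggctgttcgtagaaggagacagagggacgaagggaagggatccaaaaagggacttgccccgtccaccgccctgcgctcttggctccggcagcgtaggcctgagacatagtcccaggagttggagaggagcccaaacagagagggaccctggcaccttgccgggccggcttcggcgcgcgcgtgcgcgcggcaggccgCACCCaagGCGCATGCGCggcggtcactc

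The Alas2 window held 1 GATA match and 3 CACCC matches that follow each other. The Cpox window held 3 GATA matches, of which a pair shares a base, and 4 CACCC matches. The Alas1 window held no GATA match and 2 CACCC matches. Of all 32851 promoter windows of this length, 29.8% held a GATA match and 7.77% held 2 or more, while 57.5% held a CACCC match and 25.7% held 2 or more. The nuclear respiratory factor 1 palindrome was in 0.971% of them. The member that rose most and the member that fell both held GATA and CACCC letters. A window was found for 7 of the 8 members, and Fech had none. These 7 had 10 windows in all, because Alas1, Alad and Uros each had another start site. The windows nearest to the counted transcript of Alad and of Urod held 1 CACCC match each, and those of Uros and Ppox held neither kind of letters. The other Uros window, at a start site 6781 bases from that of the counted transcript, held 2 GATA matches. The other Alad window held neither kind. The Alas1 start site used here lies 700 bases inside the GENCODE transcript of the same accession. The other Alas1 window held 1 CACCC match and the same palindrome, at bases -195 to -186 from its own start site.

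In RefSeq's GRCm38 table the members lie on 7 chromosomes as separate loci. Alas1 spans bases 106233455 to 106247954 of chromosome 9, and Alas2 spans 150547417 to 150570622 of chromosome X. Alad spans 62505984 to 62520063 and Urod 116989965 to 116994436, both on chromosome 4. Uros spans 133686142 to 133710467 of chromosome 7, Cpox 58670208 to 58680391 of chromosome 16, Ppox 171276991 to 171281193 of chromosome 1, and Fech 64456542 to 64489098 of chromosome 18. The counts are reads over the exons of each transcript. Exons of Apex2 on the opposite strand overlap 311 of the 2037 bases of the Alas2 transcript, and exons of 4930500F10Rik on the opposite strand overlap 465 of the 3399 bases of Alas1. Apex2 had between 736 and 1231 counts per library, and the microRNA gene Mir3620, which lies on the opposite strand inside an Alas2 exon, had 4 counts in all. No run of 32 bases was shared between Alas1 and Alas2, and no other gene's transcript held more than 2.74% of a member's runs of that length.

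The libraries held 35294930 to 53899476 counts on transcripts. The label of an erythroid line was checked against 9 markers, of which 8 were matched by symbol, and none of these 8 was at or under 3 counts in any library. From day 0 to day 4, 6 of the 8 were higher, 1 was lower and 1 was not called. Epb42, which encodes a protein of the red cell membrane skeleton, rose by 4.10 on the log2 scale over this span (edgeR adjusted p = 6.88e-09). The summed erythroid marker level ran from 991 to 1072 CPM (counts scaled to a common library size) in the day 0 libraries. It ran from 1077 to 1148 CPM in those of day 2 and from 1734 to 1911 CPM in those of day 4. Tfrc and Epor rose most in CPM, with means from 250 to 582 and from 164 to 414 CPM between days 0 and 4. Klf1 was the marker called lower over this span, and Rhag was the one not called. The summed level of 8 myeloid markers, of which Spi1 was the largest part on each day, ran from 106 to 127 CPM before DMSO, from 14.5 to 15.2 CPM after 2 days and from 8.91 to 13.9 CPM after 4, while Elane, Itgam and Csf3r had at most 3 counts in each library. For 5 megakaryocyte markers, mostly Itga2b, it was 269 to 272, 214 to 237 and 548 to 622 CPM. From day 0 to day 4, 3 of these 5 were called higher and 2, Pf4 and Ppbp, lower (36.2% and 36.1% of all transcripts). Of 5 myeloid markers tested, 1, Lyz2, was higher and 3 were lower at day 2 against day 0 (31.9% and 31.6% of all transcripts). The summed level of 4 mast cell markers was 3.36 to 3.79 CPM at day 0 and at most 0.0958 CPM later. For 4 lymphoid markers it was at most 0.172 CPM. These marker levels moved with the days, and their part in the enzyme results was not tested.

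From day 0 to day 4, transcripts of 7 members rose and that of 1 member, Cpox, fell. The rises ran from 1.28-fold for Alas1 to 18.5-fold for Alas2, and Cpox was 2.00-fold lower. The median log2 fold change of the members was 1.53, beside -0.00 over all transcripts tested. All 8 members passed the test (edgeR's quasi-likelihood test, Benjamini-Hochberg adjusted p below 0.05), where 72.3% of all transcripts tested did so in either direction, 36.2% higher and 36.1% lower. Levels below are CPM with library sizes scaled by TMM, a factor that centres the bulk of transcripts, and the 2 libraries of a day are given in the order of their replicate numbers.

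**Figure D1:**
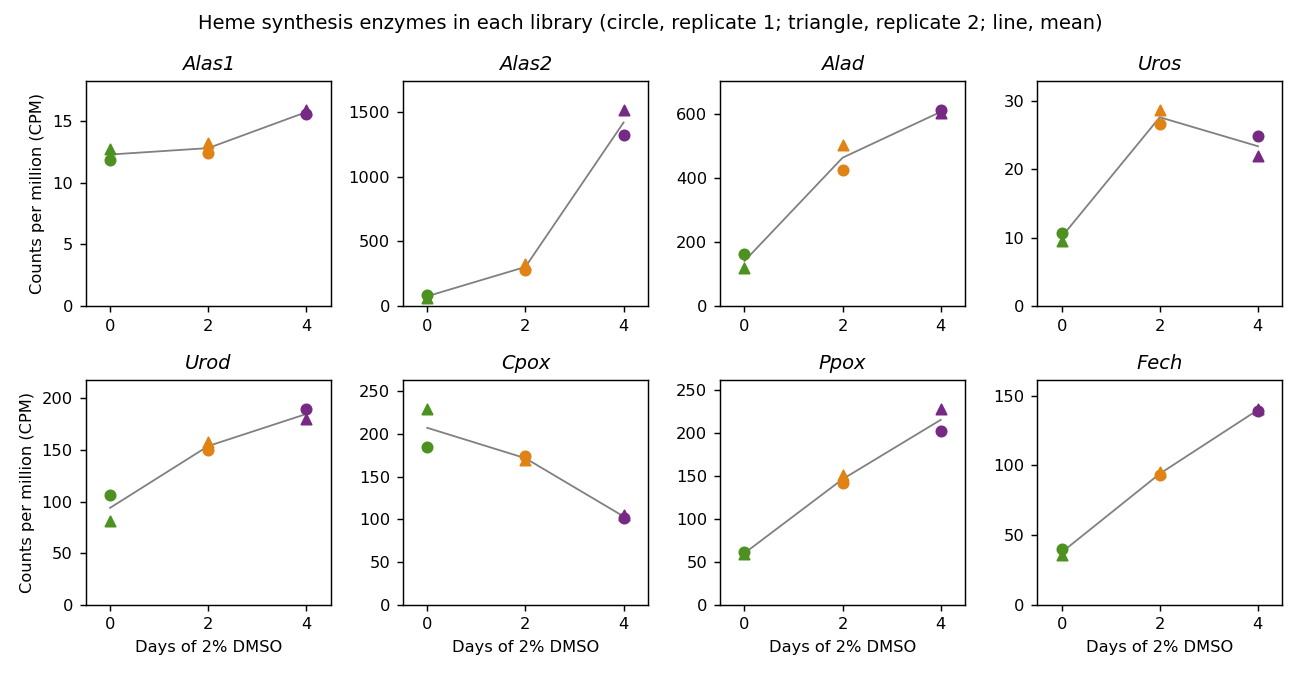
CPM of each heme synthesis enzyme (vertical axes, from 0, a scale per gene) against days of 2% DMSO (horizontal axes). Each point is 1 library, circles are replicate 1, triangles are replicate 2 and lines join the means of the 2 libraries. Alas2 climbs from 64.9 and 88.0 at day 0 to 1323 and 1510.1 at day 4, Cpox goes from 185 and 229 to 101 and 106, and Uros is highest at day 2.

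At the entry of the pathway, the erythroid synthase Alas2 was at 88.0 and 64.9 CPM at day 0, 280.0 and 325 CPM at day 2, and 1323 and 1510.1 CPM at day 4. No day's libraries overlapped those of another day. The first step was a 3.96-fold rise (log2 1.99, SE 0.17, edgeR adjusted p = 3.11e-06) and the second a 4.68-fold rise (log2 2.23, SE 0.17, edgeR adjusted p = 5.62e-05). Alas2 thus rose at both steps, and its day 4 level was 18.5-fold that of day 0 (log2 4.21, SE 0.18, edgeR adjusted p = 1.89e-08). Raw counts went from 3591 and 3219 at day 0 to 47753 and 68336 at day 4. The other Alas2 transcript, NM_001102446, differed from it by at most 12 counts in any library, so these counts do not tell the 2 transcripts apart.

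The housekeeping synthase Alas1 was at 11.9 and 12.7 CPM at day 0, 12.4 and 13.2 CPM at day 2, and 15.6 and 15.9 CPM at day 4. The libraries of day 0 and day 2 overlapped, and both day 4 libraries were above them. Its log2 fold change was 0.06 (SE 0.12, edgeR adjusted p = 0.695) at the first step and 0.30 (SE 0.12, edgeR adjusted p = 0.0933) at the second. The whole span passed the test, with a log2 fold change of 0.36 (SE 0.12, edgeR adjusted p = 0.0234). That call was lost without day 0 replicate 1 (edgeR adjusted p = 0.0578), without day 4 replicate 1 (0.0662) or without day 4 replicate 2 (0.0914). The second step passed with only the libraries of days 2 and 4 in the fit (edgeR adjusted p = 0.0480), without day 0 replicate 1 (0.0454) and without day 0 replicate 2 (0.0456).

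Levels of different genes were compared per length as TPM, in which counts are divided by transcript length and scaled to a common total, over 1 transcript for each of 23498 genes. The ratio of Alas2 to Alas1 on this scale was 12.4 and 8.51 in the day 0 libraries, 37.6 and 41.1 at day 2, and 142 and 159 at day 4. Its mean was 10.4 ± 2.74 (SD, n = 2) at day 0, 39.4 ± 2.50 at day 2 and 150.2 ± 12.2 at day 4. The erythroid isozyme was thus the more abundant synthase transcript already before DMSO, in both libraries. With only the exons inside RefSeq's gene spans counted as length, a choice made after the data were seen, the mean ratios were 8.54, 32.2 and 123.

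Among the cytosolic enzymes, Alad, which joins aminolevulinate molecules to porphobilinogen, was at 164 and 118 CPM at day 0, 425 and 503 CPM at day 2, and 612 and 603 CPM at day 4. The days did not overlap. It rose 3.30-fold at the first step (log2 1.72, SE 0.16, edgeR adjusted p = 6.68e-06). At the second step its log2 fold change was 0.39 (SE 0.16, edgeR adjusted p = 0.0837). DESeq2 called this step (adjusted p = 0.0397), as did edgeR with no filter on low counts (adjusted p = 0.0158). The step also passed with only the libraries of days 2 and 4 in the fit (edgeR adjusted p = 0.00636). With each library left out in turn, its log2 fold change ran from 0.27 to 0.51. By day 2 Alad had covered 81.6% of its log2 change to day 4, which was 2.11 (SE 0.16, edgeR adjusted p = 8.27e-07). The other Alad transcript, NM_008525, differed from it by at most 32 counts in any library.

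Uros, which closes the porphyrin ring, was at 10.8 and 9.49 CPM at day 0, 26.6 and 28.6 CPM at day 2, and 24.8 and 22.0 CPM at day 4. The day 2 libraries were the highest, and no days overlapped. It rose 2.73-fold at the first step (log2 1.45, SE 0.13, edgeR adjusted p = 4.92e-06). The second step gave a log2 fold change of -0.24 (SE 0.13, edgeR adjusted p = 0.167), which did not pass. Day 4 stayed 2.31-fold above day 0 (log2 1.21, SE 0.13, edgeR adjusted p = 9.03e-06).

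Urod, which removes carboxyl groups from the ring, had the smallest rise of the members that passed at the first step. It was at 106 and 81.5 CPM at day 0, 150.2 and 157 CPM at day 2, and 189.5 and 180.0 CPM at day 4, with no overlap between days. The first step was 1.64-fold (log2 0.71, SE 0.13, edgeR adjusted p = 0.000716) and the second gave a log2 fold change of 0.27 (SE 0.13, edgeR adjusted p = 0.144). The second step passed with only the libraries of days 2 and 4 in the fit (edgeR adjusted p = 0.0212) and without either day 0 library (0.0220 and 0.0215). The whole change was 1.97-fold (log2 0.98, SE 0.13, edgeR adjusted p = 4.80e-05).

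At the mitochondrial end of the pathway, Cpox went against the others. This oxidase of coproporphyrinogen was at 185 and 229 CPM at day 0, 174 and 169 CPM at day 2, and 101 and 106 CPM at day 4. Both day 4 libraries were below all others, and those of day 0 were furthest apart. Its log2 fold change at the first step was -0.27 (SE 0.12, edgeR adjusted p = 0.0703), which passed with DESeq2 (adjusted p = 0.0405), with relative log expression factors in edgeR (0.0486) and without day 0 replicate 1 (0.00204). With total counts the value was -0.07 (edgeR adjusted p = 0.611), and without day 0 replicate 2 it was -0.12 (0.328). At the second step it fell by 0.73 on the log2 scale (SE 0.12, edgeR adjusted p = 0.00173). From day 0 to day 4 it fell by 1.00 (SE 0.12, edgeR adjusted p = 2.36e-05).

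Ppox, the next oxidase, was at 61.0 and 58.9 CPM at day 0, 142 and 150.3 CPM at day 2, and 202 and 228 CPM at day 4. Fech, which completes heme, was at 39.8 and 35.4 CPM at day 0, 93.0 and 95.1 CPM at day 2, and 139 and 140.5 CPM at day 4. Neither gene's days overlapped, and both rose at each step. Ppox rose 2.44-fold and then 1.47-fold (log2 1.28 and 0.56, SE 0.11 for each, edgeR adjusted p = 3.60e-06 and 0.00361). Fech rose 2.50-fold and then 1.49-fold (log2 1.32 and 0.57, SE 0.10 for each, edgeR adjusted p = 2.22e-06 and 0.00240). The second-step call of Ppox was lost without day 2 replicate 1 (edgeR adjusted p = 0.0774) or day 4 replicate 2 (0.0533), and that of Fech without day 2 replicate 1 (0.0565). Over the whole span Ppox rose 3.59-fold (log2 1.84, SE 0.11, edgeR adjusted p = 1.56e-07) and Fech 3.72-fold (log2 1.90, SE 0.11, edgeR adjusted p = 9.88e-08).

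**Figure D2:**
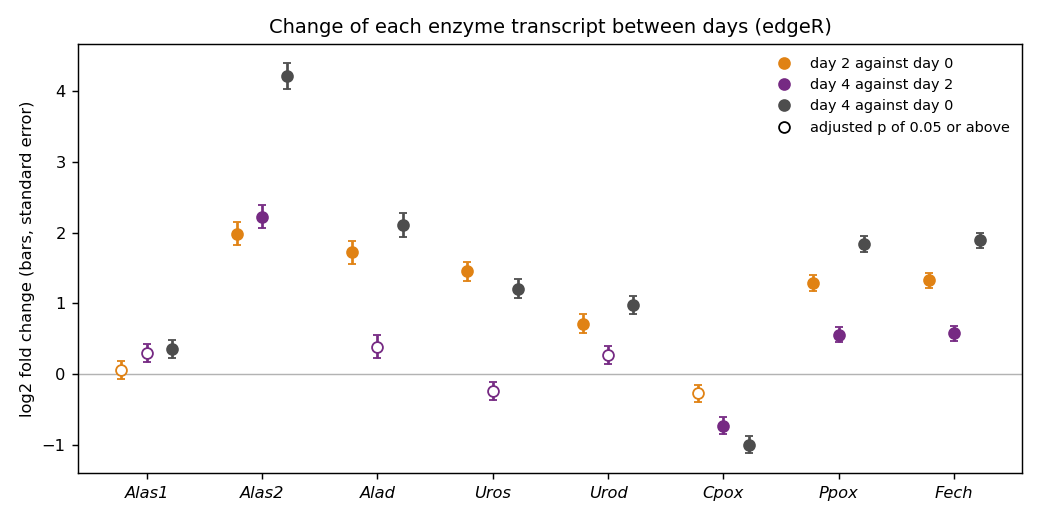
Log2 fold change of each enzyme transcript (vertical axis) from the edgeR fit, for day 2 against day 0, day 4 against day 2 and day 4 against day 0. Bars are standard errors and open circles did not reach an adjusted p below 0.05. Alas2 has changes of about 2 at both steps, Alad, Uros and Urod are open at the second step, and Cpox is below 0 throughout.

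Counted by step, 6 members were higher and none lower at day 2 against day 0, where edgeR called 63.4% of all transcripts, 31.9% higher and 31.6% lower. DESeq2 and relative log expression factors each added Cpox as lower. At day 4 against day 2, 3 members were higher (Alas2, Ppox and Fech) and 1 was lower (Cpox), where 31.0% of all transcripts were called, 14.6% higher and 16.4% lower. Alas2, Ppox and Fech were therefore called higher at both steps, as were 8.68% of all transcripts tested. The median log2 fold change of the members was 1.30 at the first step and 0.34 at the second, beside 0.02 and -0.00 over all transcripts. The second-step count is the least settled one, because it was 7 with only the libraries of days 2 and 4 in the fit, 7 without either day 0 library, and 2 without day 2 replicate 1.

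Whether a member moved by a different amount at the second step than at the first was tested by a contrast of its own. The second step was the smaller in 4 members and the larger in none, where 30.0% of all transcripts were called, 13.1% with a higher and 16.9% with a lower second step. The difference in log2 fold change, second minus first, was -1.69 for Uros (SE 0.21, edgeR adjusted p = 0.000407) and -1.33 for Alad (SE 0.27, edgeR adjusted p = 0.00467). It was -0.75 for Fech (SE 0.18, edgeR adjusted p = 0.00984) and -0.73 for Ppox (SE 0.18, edgeR adjusted p = 0.0143). For Alas2 it was 0.24 (SE 0.28, edgeR adjusted p = 0.538), so the test found no difference between its steps at this precision. The remaining values were 0.24 for Alas1, -0.45 for Urod and -0.46 for Cpox, with edgeR adjusted p of 0.437, 0.153 and 0.120. Both steps share the day 2 libraries, and without day 2 replicate 2 only Uros passed (1 member), while without day 2 replicate 1 Uros and Alad passed (2 members). The call of Ppox was also lost without day 4 replicate 1 (edgeR adjusted p = 0.0553).

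Per length, Alad was the most abundant member at day 0 with 370.2 ± 93.5 TPM (SD, n = 2). Cpox at 218 ± 27.6 TPM and Urod at 206 ± 43.2 TPM followed, with libraries that overlapped each other. Alas2 at 123 ± 29.2 TPM and Ppox at 108 ± 5.22 TPM also overlapped. Uros at 18.8 ± 2.12 TPM and Fech at 18.7 ± 1.98 TPM overlapped too, and Alas1 was lowest at 11.8 ± 0.294 TPM.

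At day 2 no neighbours in the order overlapped. Alad at 1442 ± 163 TPM led Alas2 at 575 ± 56.7 TPM and Urod at 400.0 ± 10.2 TPM. Below them were Ppox at 311 ± 10.9 TPM and Cpox at 215 ± 5.47 TPM. Uros at 60.8 ± 2.71 TPM, Fech at 55.5 ± 0.535 TPM and Alas1 at 14.6 ± 0.513 TPM closed the order.

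At day 4 Alas2 was first, at 2373 ± 173 TPM, above Alad at 1664 ± 51.3 TPM. Urod at 424 ± 24.1 TPM and Ppox at 403 ± 25.1 TPM overlapped, and the rest did not. Cpox had moved below both, to 114 ± 0.986 TPM. Fech was at 72.7 ± 1.04 TPM, Uros at 45.4 ± 4.85 TPM and Alas1 at 15.8 ± 0.133 TPM.

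Fech's place in this order depended on the transcript length used. Its GENCODE transcript has 6571 bases, of which 2941 lie inside RefSeq's span of the gene. With the shorter length its level was 39.7, 118 and 154 TPM at days 0, 2 and 4, above Uros on every day and above Cpox at day 4. Changes between days of 1 gene do not depend on its length in this way.

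**Figure D3:**
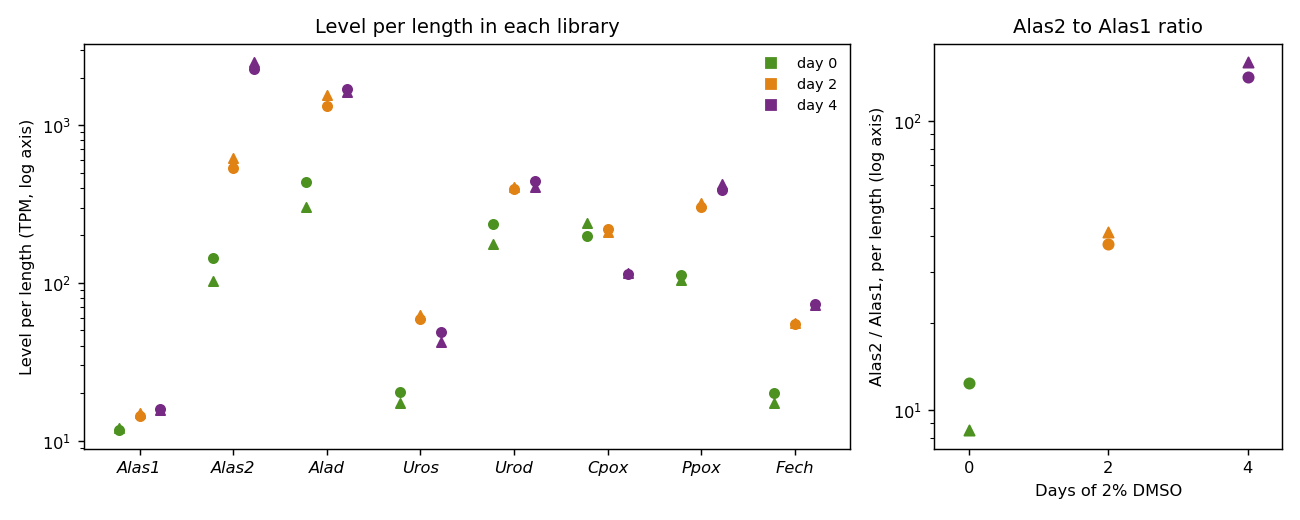
Left, level per length of each enzyme in every library in TPM (log axis). Right, ratio of Alas2 to Alas1 per length (log axis) against days of 2% DMSO. Each point is 1 library, circles are replicate 1 and triangles are replicate 2. Alas2 passes Alad between days 2 and 4, and the ratio to Alas1 goes from 8.51 to 12.4 at day 0 to 142 to 159 at day 4.

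The sum over the 8 members lay between 971 and 1179 TPM before DMSO, between 2905 and 3243 TPM after 2 days and between 5028 and 5195 TPM after 4. Alas2 held 11.4% ± 1.16 of it (SD, n = 2) at day 0, 18.7% ± 0.389 at day 2 and 46.4% ± 2.32 at day 4. The share of Cpox went the other way, from 20.7% ± 5.40 through 7.02% ± 0.724 to 2.23% ± 0.0322. At day 0 there was less Alas2 than Cpox in both libraries, with ratios of 0.723 and 0.430. At day 4 the ratios were 19.8 and 21.7.

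The members' shapes over the 6 libraries were compared by the root mean square difference of log2 CPM after each gene was centred on its mean, a description with no test. Fech and Ppox were the closest pair, at 0.063, and Alas2 and Cpox the farthest, at 2.15. Alas1 lay nearest to Urod, at 0.337, and 1.59 from Alas2. Over 10303 genes with a mean of at least 1 on the log2 CPM scale, the genes most like Alas2 were Dnajb2 at 0.314, Csf2rb2 at 0.327 and Mapre3 at 0.372. Those distances are larger than for any other member, whose nearest gene was at 0.064 or less. The distance was not scaled by the size of a gene's change, and Alas2 had the largest change of the members. Nearest to Fech were Smim14, Pcnx and Prkab2, with Smim14 at 0.034, and nearest to Ppox were Phc3, Adam8 and Zfp664, with Phc3 at 0.034. Cpox was most like Dnajc9, Ppargc1b and Tbl1xr1, with Dnajc9 at 0.049. For Alad these were Atl1, Caskin1 and Pkd1, with Atl1 at 0.064, and for Uros they were Crebl2, Itpka and Ahi1, with Crebl2 at 0.039. Urod was most like Mef2a, Npc1 and Sharpin, with Mef2a at 0.037, and Alas1 was most like Brf2, Zbtb22 and Gps2, with Brf2 at 0.023.

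Other genes of the pathway were taken from 4 lists with 33 genes in all, of which 32 were tested. From day 0 to day 4, 14 were higher and 15 lower, with a median log2 fold change of -0.04, where edgeR called 36.2% of all transcripts higher and 36.1% lower. At the first step 9 were higher and 14 lower (31.9% and 31.6% of all transcripts), and with total counts in place of TMM the split was 13 higher and 9 lower. At the second step 9 were higher and 4 lower (14.6% and 16.4% of all transcripts), and 8 and 6 with total counts. The second-step count of 13 became 20 without either day 0 library, 4 without day 2 replicate 1 or day 4 replicate 2, and 5 without day 2 replicate 2.

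Of 7 genes that supply substrates, 3 were higher and 4 lower at day 4 against day 0 (36.2% and 36.1% of all transcripts). Slc25a37, which encodes mitoferrin 1, the carrier that brings iron into the mitochondrion of erythroid cells, was at 40.2 and 44.5 CPM at day 0, 113 and 131 CPM at day 2, and 271 and 204 CPM at day 4. It rose 5.61-fold over the whole span (log2 2.49, SE 0.15, edgeR adjusted p = 1.63e-07) and at both steps. Its relative Slc25a28, mitoferrin 2, rose by 0.60 on the log2 scale (edgeR adjusted p = 0.00277). Suclg1, a subunit of succinyl-CoA ligase, fell by 1.27 (edgeR adjusted p = 7.52e-06). Slc25a38, which imports glycine for the synthase, was at 43.4 and 47.9 CPM at day 0 and 28.1 and 24.7 CPM at day 4 and fell by 0.79 (edgeR adjusted p = 0.000144). Ogdh, a subunit of the dehydrogenase that makes succinyl-CoA, rose by 0.54 (edgeR adjusted p = 0.00119), and it was named after its values were seen. Sucla2 and Suclg2, the other subunits of succinyl-CoA ligase, fell by 0.70 and 0.51 (edgeR adjusted p = 0.000101 and 0.00242). They too were named after their values were seen. Of the genes for succinyl-CoA supply, the ligase subunits thus all fell and Ogdh rose.

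Of 11 genes for porphyrin transport and enzyme partners, 5 were higher, 4 lower and 2 not called at day 4 against day 0. Of all transcripts, 36.2% were called higher and 36.1% lower. Fam210b, which encodes a mitochondrial protein that takes part in erythroid heme synthesis, was at 14.4 and 13.5 CPM at day 0, 46.5 and 48.8 CPM at day 2, and 78.4 and 87.8 CPM at day 4. It rose 5.96-fold (log2 2.58, SE 0.12, edgeR adjusted p = 2.67e-08). Abcb10, a transporter of the inner mitochondrial membrane, was at 71.1 and 79.9 CPM at day 0 and 367 and 456 CPM at day 4, a 5.45-fold rise (log2 2.45, SE 0.14, edgeR adjusted p = 1.10e-07). Both rose at each step. Clpp, the protease subunit that pairs with the unfoldase encoded by Clpx, fell by 1.46 (edgeR adjusted p = 1.06e-06). Tspo2, of the translocator protein family, was a low transcript, at 3.73 and 5.88 CPM at day 0 and 3.44 and 2.61 CPM at day 4, and fell by 0.68 (edgeR adjusted p = 0.0213).

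All 3 genes for heme use in cytochromes were lower at day 4 than at day 0, where 36.1% of all transcripts tested were called lower. Hccs, which attaches heme to cytochrome c, was at 81.6 and 91.5 CPM at day 0, 41.6 and 36.9 CPM at day 2, and 35.4 and 34.8 CPM at day 4. It fell by 1.30 on the log2 scale (SE 0.11, edgeR adjusted p = 1.76e-06). Cox10 and Cox15, which turn heme b into heme a, changed by -0.75 and -0.37 (edgeR adjusted p = 0.000521 and 0.0120). All 3 were called lower at the first step, as were 31.6% of all transcripts, and none at the second.

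Of 12 regulators of the synthase genes, 11 were tested. At day 4 against day 0, 6 were higher and 4 lower (36.2% and 36.1% of all transcripts). Tal1, a transcription factor of erythroid complexes, was at 75.0 and 62.4 CPM at day 0 and 239 and 281 CPM at day 4, a 3.79-fold rise (log2 1.92, SE 0.14, edgeR adjusted p = 4.37e-07). Zfpm1, which encodes the GATA1 cofactor FOG1, rose 2.65-fold (log2 1.41, SE 0.11, edgeR adjusted p = 1.14e-06). Lmo2, a bridging partner of TAL1 and GATA1, fell by 1.41 (SE 0.11, edgeR adjusted p = 9.18e-07). Nrf1, nuclear respiratory factor 1, fell by 0.65 (edgeR adjusted p = 0.00104). Ppargc1a had 1 count in all 6 libraries together, under the floor of 3 counts, and was not tested.

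Gata1 and Klf1 encode factors that can bind the letters marked in the promoter windows, and they were singled out after their values were seen. Gata1 was at 202 and 203 CPM at day 0, 212 and 223 CPM at day 2, and 261 and 263 CPM at day 4, with a log2 fold change of 0.37 over the whole span (SE 0.11, edgeR adjusted p = 0.00772). Klf1 was at 192 and 309 CPM at day 0 and 173 and 171 CPM at day 4, and fell by 0.54 (SE 0.18, edgeR adjusted p = 0.0188). The day 0 libraries of Klf1 were far apart, with replicate 2 the higher.

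**Figure D4:**
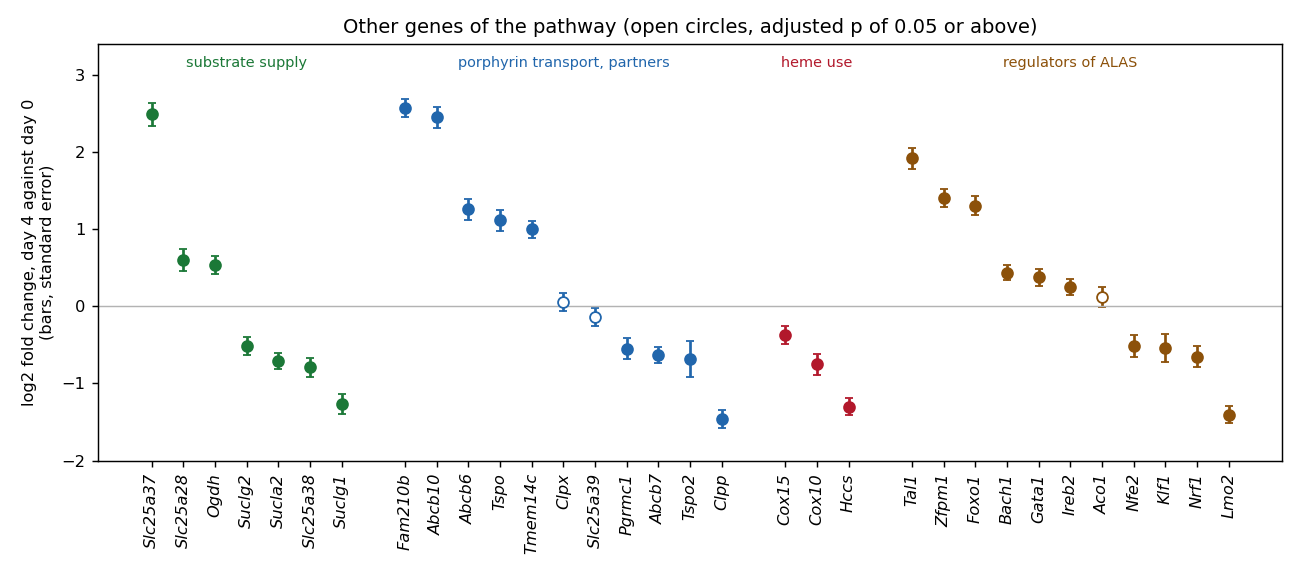
Log2 fold change at day 4 against day 0 (vertical axis) of the 32 tested genes of 4 lists, sorted within each list. Bars are standard errors and open circles did not reach an edgeR adjusted p below 0.05. Slc25a37, Fam210b, Abcb10 and Tal1 stand highest, and the 3 genes for heme use in cytochromes are all below 0.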

How the data were processed

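The authors built TruSeq Stranded mRNA libraries, trimmed reads with cutadapt and placed them on mm10 using TopHat. What the authors deposited is a raw count for each RefSeq transcript and library, neither normalized nor pooled. The authors compared days with DESeq2. HTSeq is also named in the submitters' processing notes, with no role or version given, and the counting options are not given in the sources used here. Rows naming no gene (5 per library) were left out. Reads on no feature, as a share of the sum of these reads and the counts on transcripts, were 50.5 and 54.1% at day 0. They were 53.8 and 52.7% at day 2 and 58.1 and 58.4% at day 4, so this share was highest at day 4. Its part in the results was not tested. The 2 Alas2 transcripts had the same counts at day 0 (3591 and 3219), so a read seems to count for more than 1 transcript. This share is therefore not a share of all reads.

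Days and replicate numbers were taken from the labels. Symbols came from RefSeq for 32195 transcripts and from GENCODE M21 for 191, and 268 had none. The counts were fitted over all 6 libraries with edgeR 4.0.16 (R 4.3.3; TMM factors, filterByExpr, quasi-likelihood test) with a mean per day, and p-values were adjusted by Benjamini-Hochberg over all 18351 transcripts kept, with a threshold of 0.05. Comparisons share libraries: day 4 against day 0 is the sum of the 2 steps. Levels per length were TPM from GENCODE M21 exon lengths, over 1 transcript per gene. Lengths, overlaps and shared runs of 32 bases were computed from that annotation. The floor was 3 counts.

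Alternatives were DESeq2 1.42.0, other scalings, no filter, fewer libraries, a replicate block, a log2 fold change limit of 1 and other transcript choices. Members, gene lists, tests and alternatives were chosen with earlier results of these data known. All members were named. Of each partner list, the 2 largest called rises and the 2 largest called falls at day 4 against day 0 and genes under the floor were named, and for each member the 3 genes most like it. Not every gene of the pathway or of the marker lists is reported here. P-values rest on the spread between the 2 cultures of a day, pooled over the 3 days and drawn toward a trend over all transcripts. Alas1 and Uros had the fewest counts, with 439 to 1407 per library. Their standard errors at day 2 against day 0, 0.12 and 0.13, were smaller than the 0.17 of Alas2 and the 0.16 of Alad.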

Additional observations from a re-analysis of the deposited data

Results flagged for a closer look

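In 4 members the change from day 2 to day 4 differed from the change from day 0 to day 2 by the edgeR contrast of the steps. The difference in log2 fold change, second minus first, was -1.69 for Uros, -1.33 for Alad, -0.75 for Fech and -0.73 for Ppox. The adjusted p, from edgeR or from DESeq2 as an alternative, ranged over the settings and left-out libraries from 3.92e-11 to 0.0200 for Uros, from 4.05e-08 to 0.103 for Alad, from 0.000597 to 0.121 for Fech and from 0.00193 to 0.169 for Ppox.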

How the results depend on the processing

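No member or partner gene that passed the test changed direction in the 14 other fits of each comparison. The split of partner calls at the first step did turn, from 9 higher and 14 lower to 13 higher and 9 lower with total counts in place of TMM. The step differences of Alas1 and Alas2, which did not pass, were -0.046 and -0.039 with total counts, the opposite sign to the values in the report. Of the other values of single members, 408 kept their direction and their side of the threshold, 18 passed it in addition and 12 no longer passed. With total counts the medians of the members were 1.50, 0.26 and 1.64 for day 2 against day 0, day 4 against day 2 and day 4 against day 0, where the median of all transcripts moved to 0.22, -0.09 and 0.11. With only the libraries of days 2 and 4 fitted, 7 members and 20 partner genes were called between them. Where calls also had to reach a log2 fold change of 1, partner calls were 10, 0 and 12 over the same 3 comparisons, and 1 member, Alas2, remained at day 4 against day 2; edgeR without this limit called 13 partner genes there. Lengths inside RefSeq's gene spans, added after the data were seen, gave Alas2 to Alas1 ratios of 32.2 at day 2 and 123 at day 4.

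Leaving out each library in turn gave 6 to 7 members called at day 2 against day 0, 2 to 7 at day 4 against day 2, 7 to 8 at day 4 against day 0 and 1 to 5 for the difference of the steps. Partner calls ranged from 18 to 25, from 4 to 20 and from 24 to 30, and the medians of the members from 1.24 to 1.36, from 0.26 to 0.42 and from 1.45 to 1.58. The cause of these movements was not tested. A lone library of a day was assumed to vary like the other days.

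The labels do not say whether libraries with the same replicate number come from related cultures. Deviations of same-numbered libraries correlated at 0.033, 0.022 and 0.135 for the 3 pairs of days. Noise in low transcripts also lowers such values, so they cannot decide this. With the replicate number as a block, 6, 4 and 8 members and 23, 12 and 29 partner genes were called, the difference of the steps was called for 4 members, and the medians were 1.30, 0.34 and 1.52. The block changed no call of a member.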
